A study of Mus musculus with 69 samples.

Results

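The genes examined were Calcrl, Ramp1, Ramp2, Ramp3 and Adm, which encode the receptor for adrenomedullin and calcitonin gene-related peptide (CGRP), its accessory proteins and 1 of its ligands. These 5 genes were taken by symbol from the 56953 gene rows of 3 raw count tables. The set was built around Ramp1, which had been selected on its measured fold change, a high one with angiotensin II and catecholamine in smooth muscle cells in these libraries. That contrast is therefore described for all 5 genes without a test. For Ramp1, every other smooth muscle contrast that reuses the Control or AII+NA libraries of wild-type cells is likewise only described.

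Poly(A) RNA was sequenced from primary cells of male C57BL/6 mice, and the study asked how stressors associated with obesity act on vascular cells and whether the EGF receptor takes part. Vascular smooth muscle cells were grown from the aorta of 4 wild-type mice (WT VSMC, 16 libraries) and of 4 mice with floxed Egfr and a Cre recombinase driven by the SM22 promoter (KO VSMC, 15 libraries). Endothelial cells came from the heart by CD45 depletion and CD31 selection on beads (EC, 38 libraries in 10 sets from 9 animals). The labels give every EC library the cell genotype WT, also sets 15 and 16 from animals that gave KO VSMC. Each set held cells of 1 animal exposed in parallel for 24 h to 4 conditions: Control; HG+FFA (20 mM glucose with 100 µM free fatty acids, spelled HG+FFS in the sample names); AII+NA (30 nM angiotensin II with 300 nM epinephrine by the labels, norepinephrine in the methods); or all of these together (ALL). The methods give that fatty acid concentration for oleate and for palmitate each, and all media, Control included, held serum albumin and no serum. Replicates of a condition are thus cultures of separate animals, apart from EC sets 17 and 18. There were 4 libraries per condition in VSMC (3 for KO VSMC ALL) and 9 or 10 in EC. KO VSMC ALL of set 5, EC Control of set 10 and EC AII+NA of set 15 were not analysed here. A single animal gave both EC set 17 and EC set 18, and 2 EC animals had also given WT VSMC. All VSMC libraries carry 1 batch label and all EC libraries another, so that batch and cell type cannot be told apart.

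CALCRL is a G protein-coupled receptor that reaches the cell surface only with a receptor activity-modifying protein (RAMP). With RAMP1 it forms the CGRP receptor, and with RAMP2 or RAMP3 it forms the adrenomedullin receptors AM1 and AM2. Both kinds couple to Gs and raise cAMP, which relaxes smooth muscle, and the pairing with RAMP2 is known for keeping vessels intact. Adrenomedullin, the product of Adm, is secreted by endothelial and smooth muscle cells, whereas CGRP comes mainly from sensory nerves.

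On GRCm39, the build of the count tables, Ramp1 (ENSMUSG00000034353) lies on the plus strand of chromosome 1 from 91107540 to 91152918. Ramp2 (ENSMUSG00000001240) lies on the plus strand of chromosome 11 from 101136358 to 101150419 and Ramp3 (ENSMUSG00000041046) on the plus strand of the same chromosome from 6608511 to 6627475. Calcrl (ENSMUSG00000059588) lies on the minus strand of chromosome 2 from 84160957 to 84255755. Adm (ENSMUSG00000030790) lies on the plus strand of chromosome 7 from 110226858 to 110229027. Of the exonic bases of Ramp2, 28.5% overlap Vps25 on the same strand, and 31.9% of those of Adm overlap an antisense transcript. For Ramp3 the antisense overlap is 7.27%, and no exon of Ramp1 or Calcrl overlaps another gene. Reads in the bases that Ramp2 shares with Vps25 are uncertain under any strand setting of the counting. That setting is not given in the sources used here, so reads in the antisense overlaps of Ramp3 and Adm are uncertain too.

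The promoters of Ramp1, the gene around which the set was built, and of Adm, the ligand gene, are shown because both genes had their levels followed across the stressors. The sequences are the 250 bases before the RefSeq start site on GRCm38.p6 (chr1:91179572-91179821, plus strand, for Ramp1 and chr7:110627407-110627656, plus strand, for Adm), and capitals mark the searched motifs that were found.
Ramp1: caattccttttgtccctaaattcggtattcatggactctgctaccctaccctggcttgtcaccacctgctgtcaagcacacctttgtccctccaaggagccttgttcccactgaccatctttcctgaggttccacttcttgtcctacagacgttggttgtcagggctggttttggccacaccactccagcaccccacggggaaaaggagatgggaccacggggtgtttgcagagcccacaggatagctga
Adm: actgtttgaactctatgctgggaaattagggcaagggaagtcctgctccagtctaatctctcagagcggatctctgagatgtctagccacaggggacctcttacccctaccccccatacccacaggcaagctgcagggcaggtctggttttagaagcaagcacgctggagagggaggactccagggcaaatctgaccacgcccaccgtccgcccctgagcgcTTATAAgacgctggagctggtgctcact

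The GC content of these bases was 54% for Ramp1, 56.8% for Adm, 65.2% for Ramp3 and 48.4% for Calcrl; Ramp2 was missing from the table. The letters TATAA of a TATA box were found in 1 of the 4 promoters, that of Adm, 27 to 23 bases before the start on the plus strand and, overlapping it, 28 to 24 bases before the start on the minus strand. Of 32851 promoter windows of this length, 22.8% held these letters. The cAMP response element core (TGACG), the core of a hypoxia response element (ACGTG) and a CArG box were found in 0 of the 4 on either strand, and 17.8%, 16.6% and 1.47% of all windows held them.

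Library totals ran from 23626664 to 37801299 assigned counts in WT VSMC, from 23238979 to 35120866 in KO VSMC and from 17166133 to 43240489 in EC. Levels are given as FPM, fragments scaled to the size of the library, for each gene, or as TPM, the same scaled also to transcript length, where genes are compared. Egfr, the targeted gene, averaged 246 to 430 FPM per set in WT VSMC and 0.959 to 1.84 FPM in KO VSMC sets 6 to 8, but 36.5 FPM in KO VSMC set 5. That set also had the highest Myh11 at 239 FPM, against 2.75 to 7.62 FPM in the other KO sets. The 10 endothelial markers summed to 548 to 4516 FPM in 7 EC sets, but to 60.4, 141 and 62.4 FPM in EC sets 9, 11 and 13. In these 3 sets Pecam1, which encodes the CD31 used for selection, was at 18.1 to 42.4 FPM against 260 to 1594 FPM in the others. The endothelial junction gene Cldn5 stood at or under 0.66 FPM in every EC set. The fibroblast markers in EC sets 9, 11 and 13 summed to 3614 to 9991 FPM against 609 to 4331 FPM in the others. Smooth muscle markers in these 3 sets summed to 866 to 3301 FPM against 219 to 745 FPM in the others. For pericyte markers the sums were 565 to 615 FPM against 103 to 557 FPM. VSMC also held 4361 to 9375 FPM (WT) and 1525 to 5919 FPM (KO) of fibroblast markers. Their smooth muscle markers summed to 773 to 1304 FPM per set in WT VSMC and to 901 to 3284 FPM in KO VSMC. The smooth muscle gene Acta2 averaged 879 FPM in WT VSMC and 1479 FPM in KO VSMC, whereas the contractile gene Tagln stood at only 2.58 to 10.6 FPM. The endothelial markers summed to 3.23 to 62.4 FPM in WT VSMC sets, highest in set 2, and to 6.03 to 24.5 FPM in KO VSMC sets.

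In Control cells Adm averaged highest in WT VSMC, and Calcrl and Ramp2 averaged highest in EC. Per transcript length, Adm was the highest of the 5 genes in WT VSMC at 480 ± 83.8 TPM (SD, n = 4). It averaged 118 ± 83.2 TPM (n = 4) in KO VSMC and 103 ± 51.7 TPM (n = 9) in EC. Calcrl averaged 123 ± 152 TPM in EC, 6.94 ± 4.75 TPM in WT VSMC and 5.31 ± 2.78 TPM in KO VSMC. Ramp2 averaged 77.3 ± 90 TPM in EC, 14.5 ± 12 TPM in WT VSMC and 4.74 ± 5.56 TPM in KO VSMC, where set 5 had 13 TPM and the other sets 1.36 to 3.02 TPM. Ramp3 averaged 1.61 to 2.45 TPM and Ramp1 0.504 to 0.836 TPM across the cell types. In WT VSMC the order was thus Adm, Ramp2, Calcrl, Ramp3, Ramp1, but only Adm stood clear of its neighbour, since the ranges of Ramp2 (2.49 to 27.6 TPM) and Calcrl (1.93 to 11.7 TPM) overlapped, as did those of Ramp3 (0.496 to 3.89 TPM) and Ramp1 (0.322 to 0.82 TPM).

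**Figure D1:**
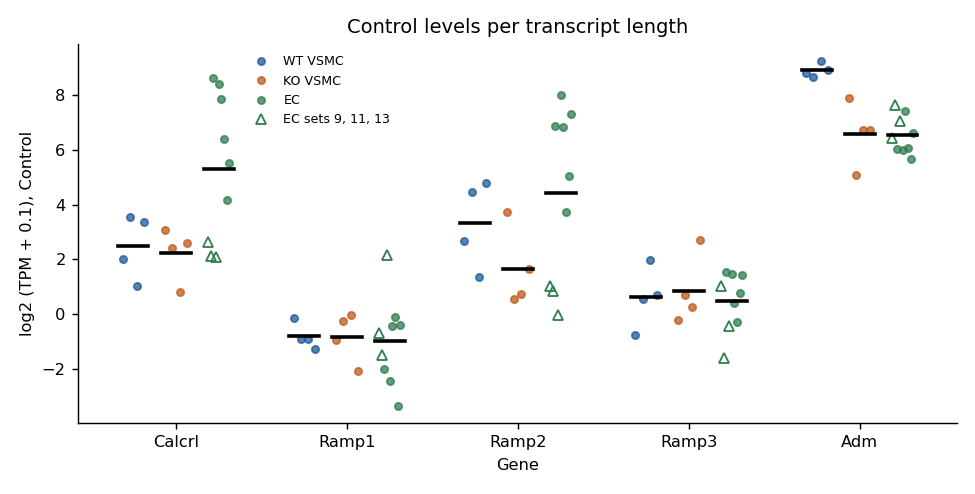
Control levels of the 5 genes as log2 (TPM + 0.1), 1 point per set, with black bars for the mean of the log values; open triangles are EC sets 9, 11 and 13. Adm lay highest in WT VSMC, and the 3 triangles lay below the other EC sets for Calcrl and Ramp2.

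Transcripts of the RAMPs were further set against each other as shares of their summed TPM. In WT VSMC Control, Ramp2 made up 76.3% ± 27 (SD, n = 4) and Ramp1 5.04% ± 4.5, or 69.5% and 6.41% when all annotated exons set the length. With AII+NA the Ramp1 share averaged 27.5% ± 15.9, with a range of 13.9% to 50.3%, and with ALL it averaged 20.9% ± 9.39. Ramp1 was selected on these WT VSMC Control and AII+NA libraries, so its shares there are a description. In KO VSMC the Ramp1 share averaged 12.4% ± 12 in Control and 22% ± 19.2 with AII+NA. With ALL it averaged 20.8% ± 11.2 there (n = 3), near the share in WT VSMC with ALL, and the KO VSMC ranges overlapped. In EC it averaged 11.6% ± 23.9 (n = 9) in Control and 9.78% ± 18.2 (n = 9) with AII+NA, higher in 4 and lower in 4 of the 8 sets with both. With ALL the share in EC averaged 8.12% ± 15.4 (n = 10). Ramp2 held the largest share in Control in 3 of 4 WT VSMC sets, 2 of 4 KO VSMC sets and 8 of 9 EC sets. Ramp3 led in WT VSMC set 3 (57.1%) and in KO VSMC sets 6 (42.1%) and 8 (66.9%), and Ramp1 led in EC set 13 (74%).

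A gene was called differentially expressed (DEG) when edgeR and DESeq2 both gave a false discovery rate (FDR) under 0.05, the log2 fold change was at least 0.64 in size and the mean reached 3 FPM in 1 of the groups. In EC, 1 of the 5 genes, Ramp2, was a DEG with HG+FFA and with ALL, where 0.659% and 0.641% of all genes tested were. In WT VSMC, 0 of the 5 were DEG with HG+FFA (0.284% of all genes). There 1 gene, Ramp2, had an unadjusted p under 0.05 by edgeR, as had 11.2% of all genes. Ramp2 also had an adjusted p under 0.05 by DESeq2, but its log2 fold change was under 0.64 in size. With ALL, Ramp2 was the only DEG in WT VSMC among the genes tested there (2.19% of all genes). Ramp1 also met the criteria with ALL, which is a description and is not counted. With AII+NA, the contrast on which Ramp1 was selected, 1 of the 5 met the criteria (0.0414% of all genes), and nothing is read from it. In KO VSMC 0 of the 5 were DEG with HG+FFA, AII+NA or ALL, against 0.291%, 0% and 0.314% of all genes. There, edgeR gave 3, 1 and 2 of the 5 an unadjusted p under 0.05 (12.4%, 9.76% and 10.5% of all genes), and DESeq2 called 0 in each, although it gave Ramp1 and Ramp3 no adjusted p with AII+NA. In EC with AII+NA 0 of the 5 were DEG (0% of all genes), with 0 at an unadjusted p under 0.05 by edgeR and 0 by DESeq2.

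**Figure D2:**
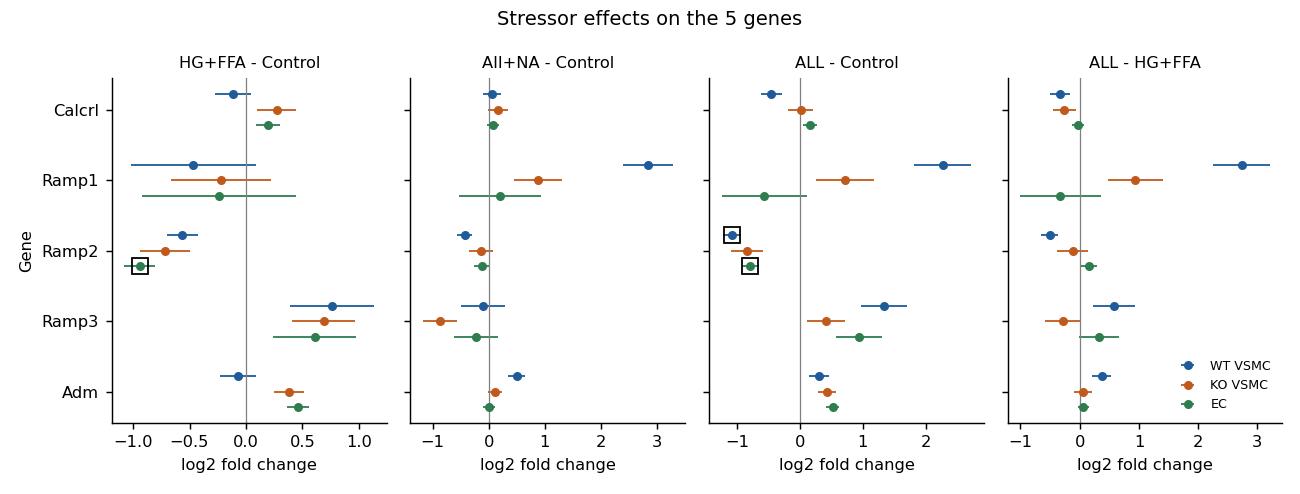
Log2 fold change from edgeR (points) with a standard error derived from its F statistic (bars) for the 5 genes in 3 cell types. Black squares mark DEG among tested values, and the axes differ between panels. Ramp1 lay far to the right of 0 only in WT VSMC with AII+NA or ALL (both described, not tested, against Control), and Ramp2 lay left of 0 in all 3 cell types with HG+FFA and with ALL.

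Ramp1, the RAMP that turns CALCRL into the CGRP receptor, was scarce in unstimulated WT VSMC and higher wherever AII+NA was present. In WT VSMC Control it was at 1.05, 0.549, 0.572 and 0.397 FPM in sets 1 to 4, from 11 to 35 counts. With AII+NA it was at 5.47, 4.67, 1.34 and 10.4 FPM in the same sets, from 42 to 275 counts. The 2 groups did not overlap, set 4 was highest and set 3 lowest with AII+NA, and the fitted difference was 2.84 (SE 0.45) on the log2 scale, given as a description of the selected contrast. With HG+FFA the 4 sets had 0.927, 0.238, 0.391 and 0.354 FPM, from 6 to 30 counts. With ALL they had 2.21, 3.32, 1.48 and 7.25 FPM. Against Control, the described differences were −0.47 (SE 0.55) for HG+FFA and 2.27 (SE 0.46) for ALL.

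The comparison of ALL with HG+FFA contrasts libraries other than those on which Ramp1 was selected, but from the same 4 animals, and the selection libraries entered the fit and thus its set terms and its estimate of the spread. Ramp1 was higher with ALL in 4 of 4 WT VSMC sets, and the groups did not overlap. The log2 difference was 2.73 (SE 0.48, 6.64-fold), with an FDR of 0.0656 by edgeR and 0.000969 by DESeq2, so that it missed the criteria for a DEG. With only these 2 conditions in the fit, which leaves the selection libraries out, it was 2.71 with an edgeR FDR of 0.118. In this comparison 0 of the 5 genes were DEG, against 0.0296% of all genes, 3 of the 5 had an unadjusted p under 0.05 by edgeR (10.8% of all genes) and 1 an adjusted p under 0.05 by DESeq2. Without WT VSMC set 1 the edgeR FDR was 0.0447 and the difference 3.37. Without sets 2, 3 or 4 the FDR was 0.211, 0.0828 and 0.195. The 8 smooth muscle markers, summed, were also higher with ALL than with HG+FFA in these sets, by 0.36 to 2.09 (median 0.91) on the log2 scale, and with AII+NA than with Control by 0.53 to 2.27; their part in the Ramp1 difference was not tested.

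**Figure D3:**
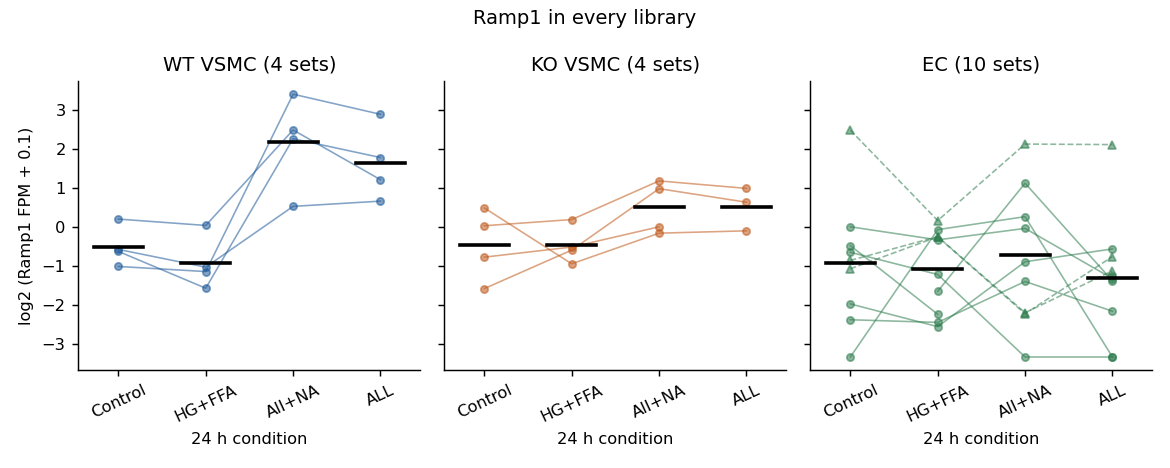
Ramp1 as log2 (FPM + 0.1) in every library, with lines joining the conditions of a set, black bars for the mean of the log values, and dashed lines with triangles for EC sets 9, 11 and 13. In WT VSMC the 4 sets with AII+NA (1.34 to 10.4 FPM) and with ALL (1.48 to 7.25 FPM) all lay above Control and HG+FFA.

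In KO VSMC Ramp1 was also scarce, and none of its differences passed the threshold. Control held 0.486, 0.922, 1.3 and 0.236 FPM in sets 5 to 8, and HG+FFA held 0.601, 1.04, 0.421 and 0.564 FPM. With AII+NA the levels were 0.903, 2.16, 0.796 and 1.87 FPM, and with ALL they were 1.88, 0.834 and 1.45 FPM in sets 6 to 8. Ramp1 was higher than Control in 3 of 4 sets with AII+NA, by 0.87 (SE 0.43, FDR 0.51), and set 7 went the other way. ALL exceeded HG+FFA in 3 of 3 sets by 0.94 (SE 0.46, FDR 0.999), and the groups overlapped. In this comparison 0 of the 5 were DEG, as were 0% of all genes, with 0 of the 5 at an unadjusted p under 0.05 by edgeR and 0 by DESeq2. In HG+FFA, Ramp1 differed between KO and WT VSMC by 0.44 (SE 0.49, FDR 0.716).

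The difference between genotypes was tested directly. For Ramp1 the effect of ALL against HG+FFA was larger in WT than in KO VSMC by 1.80 (SE 0.72), with an unadjusted p of 0.0193 and an FDR of 0.88, so that a difference between genotypes was not established. Of the 5 genes 0 passed an FDR of 0.05 in edgeR, as did 0% of all genes; 1 of the 5 had an unadjusted p under 0.05 (5.5% of all genes), and DESeq2 called 0. For the 4 other genes, 0 passed for the effect of HG+FFA (0% of all genes; 0 at an unadjusted p under 0.05 and 0 by DESeq2). Likewise 0 passed for the effect of ALL against Control (0.0109% of all genes; edgeR gave none of the 4 an unadjusted p under 0.05, and DESeq2 called 0).

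In EC Ramp1 was at the edge of detection, with 0 to 143 counts and a median of 8.5. Control ranged from 0 to 5.45 FPM with a median of 0.453 FPM, and AII+NA from 0 to 4.24 FPM with a median of 0.44 FPM. Set 13, with low endothelial markers, was highest in all 4 conditions at 5.45, 1.02, 4.24 and 4.2 FPM. The fitted difference was 0.21 (SE 0.73, FDR 0.957) for AII+NA, −0.24 (SE 0.68, FDR 0.91) for HG+FFA and −0.57 (SE 0.68, FDR 0.742) for ALL. These standard errors were larger than those of Ramp1 in VSMC.

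Ramp2, the partner that makes CALCRL the AM1 receptor, was lower with HG+FFA and with ALL in every set of all 3 cell types that had both libraries. In EC its Control level ranged from 0.881 to 217 FPM with a median of 25.3 FPM (n = 9), and with HG+FFA it ranged from 0.462 to 123 FPM with a median of 11.6 FPM (n = 10). The groups overlapped because sets differed far more than conditions did, but HG+FFA was lower than Control in 9 of 9 sets and ALL was lower in 9 of 9. Ramp2 fell by 0.94 on the log2 scale with HG+FFA (SE 0.14, a drop of 47.9%, FDR 5.32e-05) and by 0.79 with ALL (SE 0.14, a drop of 42.1%, FDR 0.000547). Without EC sets 9, 11 and 13, where Ramp2 was at or under 2 FPM, it fell by 0.99 and 0.84 and both stayed DEG. That exclusion was chosen after seeing the data. The summed endothelial markers differed from Control by −0.20 to 0.40 (median 0.04) with HG+FFA and by −0.24 to 0.36 (median 0.06) with ALL. In such bulk samples fewer cells of a type and less RNA per cell cannot be told apart. With the animal in place of the set as block, which joins sets 17 and 18, the values were −0.91 (FDR 0.168) and −0.77 (FDR 0.278) and neither was a DEG; Ramp2 differed between these 2 sets from 25.3 to 103 FPM in Control.

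With AII+NA Ramp2 in EC differed by −0.13 (SE 0.14, FDR 0.841), and ALL did not differ from HG+FFA beyond the error (0.15, SE 0.14). For ALL against HG+FFA in EC, 0 of the 5 genes were DEG, as were 0% of all genes, with 0 at an unadjusted p under 0.05 by edgeR and 0 by DESeq2.

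In WT VSMC Ramp2 was at 6.36, 21.6, 2.56 and 26.9 FPM in Control in sets 1 to 4. With HG+FFA it was at 3.71, 15.2, 1.48 and 20.9 FPM, with AII+NA at 4.02, 13.8, 2.43 and 21.9 FPM, and with ALL at 3.21, 11.3, 1.33 and 10.4 FPM. Sets 2 and 4 were high and set 3 low in all conditions, and within each set Control was the highest. Ramp2 fell by 1.07 with ALL (SE 0.14, a drop of 52.4%, FDR 0.000615) and stayed a DEG when any 1 of the 4 sets was left out. The HG+FFA difference was −0.56 (SE 0.14) with an FDR of 0.0844 by edgeR and 0.016 by DESeq2, and ALL differed from HG+FFA by −0.51 (SE 0.15, FDR 0.183). The described AII+NA difference was −0.43 (SE 0.14). The summed endothelial markers in WT VSMC differed from Control by −0.29 to −0.11 (median −0.15) with HG+FFA. With ALL they differed by −1.06 to 0.17 (median −0.36), and their part in the fall of Ramp2 was not tested.

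**Figure D4:**
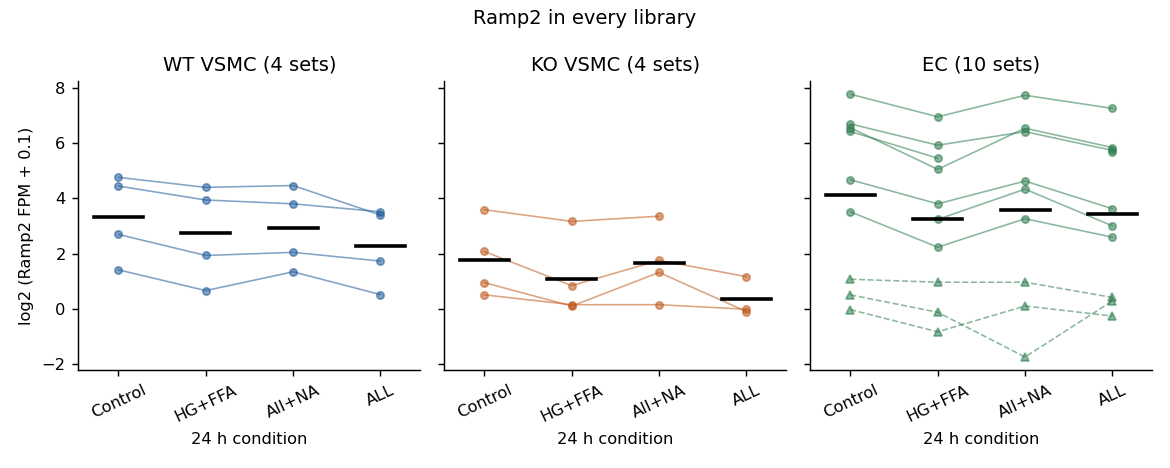
Ramp2 as log2 (FPM + 0.1) in every library, with lines joining the conditions of a set, black bars for the mean of the log values, and dashed lines with triangles for EC sets 9, 11 and 13. Lines ran down from Control to HG+FFA in every set that had both, over a spread between EC sets from 0.881 to 217 FPM in Control.

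In KO VSMC Ramp2 was at 11.9, 1.32, 1.83 and 4.11 FPM in Control and at 8.85, 1.01, 0.972 and 1.69 FPM with HG+FFA in sets 5 to 8. Set 5, which kept more Egfr RNA, was highest in both. With ALL it was at 0.89, 0.834 and 2.14 FPM in sets 6 to 8. The differences were −0.72 (SE 0.22, FDR 0.225) with HG+FFA and −0.83 (SE 0.26, FDR 0.235) with ALL, neither past the threshold. The genotype difference for Ramp2 was 0.13 (SE 0.25) in the effect of HG+FFA and −0.23 (SE 0.29) in that of ALL. Vps25, whose exons overlap those of Ramp2, had 11 to 17 counts in WT VSMC Control and averaged at most 0.842 FPM in any set, under the level a DEG requires. Reads in the shared bases are uncertain for Vps25 too, so its count may not give its level.

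Ramp3, the partner of the AM2 receptor, was low, and an FDR under 0.05 was reached only with ALL in WT VSMC among the stressor comparisons. In WT VSMC it was at 0.3, 0.823, 2.4 and 0.903 FPM in Control and at 0.909, 3.99, 3.89 and 1.49 FPM with ALL in sets 1 to 4. ALL was higher in 4 of 4 sets, by 1.33 (SE 0.37, FDR 0.0374 by edgeR and 0.00516 by DESeq2), but no group mean reached 3 FPM and Ramp3 was therefore not a DEG. With HG+FFA it was higher in 4 of 4 WT sets (0.76, SE 0.37, FDR 0.476) and in 4 of 4 KO sets (0.69, SE 0.28, FDR 0.343). In EC it was higher in 8 of 9 sets with HG+FFA (0.61, SE 0.37, FDR 0.421) and in 7 of 9 with ALL (0.94, SE 0.37, FDR 0.178). Set 14 was the EC set that went down in both, from 1.35 to 0.38 and 0.292 FPM. In KO VSMC Ramp3 was lower with AII+NA in 4 of 4 sets, at 0.167, 0.417, 0.575 and 2.76 FPM against 0.417, 0.893, 0.767 and 5.2 FPM (−0.87, SE 0.31, FDR 0.509).

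Calcrl, the receptor shared by the 3 RAMPs, passed the test in none of the tested stressor comparisons by edgeR or DESeq2. In WT VSMC it was at 9.31, 27.4, 4.65 and 23.4 FPM in Control and at 5.52, 19, 4.39 and 17.7 FPM with ALL in sets 1 to 4. ALL was lower in 4 of 4 sets, by 0.45 on the log2 scale (−0.45, SE 0.17, FDR 0.112). HG+FFA gave −0.12 (SE 0.16), and in KO VSMC the differences were 0.27 (SE 0.18) with HG+FFA, 0.17 (SE 0.18) with AII+NA and 0.01 (SE 0.20) with ALL. In EC they were 0.19 (SE 0.11), 0.08 (SE 0.11) and 0.16 (SE 0.11), each with an FDR of at least 0.36.

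Between cell types Calcrl was higher in EC. In EC Control it ranged from 9.75 to 728 FPM with a median of 70.4 FPM (n = 9), and sets 9, 11 and 13 gave 9.75, 11.5 and 9.77 FPM. The other 6 sets lay between 31.8 and 728 FPM, above all WT VSMC libraries in Control (4.65 to 27.4 FPM). Calcrl was higher in EC than in WT VSMC by 3.84 in Control (SE 1.35, FDR 0.0742) and by 4.07 in HG+FFA (SE 1.33, FDR 0.0384), and only the latter was a DEG. Without EC sets 9, 11 and 13, an exclusion chosen after seeing the data, the differences were 4.42 (FDR 0.00713) and 4.56 (FDR 0.00388), both DEG. In HG+FFA the call was lost when EC set 10, 12 or 15 or any WT VSMC set was left out, with differences of 3.74 to 4.60 over all sets left out in turn. In Control it was gained without EC set 11 or 13. Ramp2 was 2.07 higher in EC in Control (SE 1.30, FDR 0.297), and a DEG without those 3 sets (2.66, FDR 0.0372); in HG+FFA it was 1.51 higher (SE 1.23, FDR 0.386), and without those sets 2.01 higher (FDR 0.103), a DEG in neither.

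Adm, the ligand gene, went the other way and was lower in EC than in WT VSMC. In Control it was at 299, 272, 413 and 317 FPM in WT VSMC sets 1 to 4 and ranged from 25.8 to 153 FPM with a median of 38.8 FPM in EC, so that the groups did not overlap. It was lower in EC by 2.43 in Control (5.37-fold, SE 0.39, FDR 0.00308) and by 1.68 in HG+FFA (3.22-fold, SE 0.42, FDR 0.0112), a DEG in both. In Control 1 of the 4 genes tested was a DEG between EC and WT VSMC, against 9.9% of all genes, and in HG+FFA 2 of 5 were, against 16.2%.

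In KO VSMC Control Adm was at 144, 21.9, 81.1 and 95 FPM in sets 5 to 8, all below the 4 WT VSMC libraries. The difference between KO and WT was −1.93 in Control (SE 0.47, FDR 0.294 by edgeR and 0.00355 by DESeq2) and −1.53 in HG+FFA (SE 0.47, FDR 0.257 and 0.0306), and neither was a DEG. Without KO VSMC set 5 it was −2.30 in Control with an FDR of 0.0459. Between KO and WT VSMC 0 of the 4 genes tested in Control and 0 of 5 in HG+FFA were DEG, against 0.00622% and 0.0184% of all genes. In each condition 1 of them, Adm, had an unadjusted p under 0.05 by edgeR (12.2% and 14% of all genes) and an adjusted p under 0.05 by DESeq2. These cultures came from different animals, and the fibroblast markers also ran lower in KO than in WT VSMC (medians of 1954 and 6615 FPM); their part in the Adm difference was not tested.

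With the stressors, Adm was higher in EC where fatty acids and glucose were added. With HG+FFA it was higher in 7 of 9 EC sets and with ALL in 9 of 9, and the medians were 73.2 and 82 FPM against 38.8 FPM in Control. The differences were 0.46 (SE 0.10, 1.38-fold, FDR 0.00535) and 0.52 (SE 0.10, 1.44-fold, FDR 0.00174), significant in edgeR and DESeq2 but under the fold required of a DEG. Sets 11 and 13, with low endothelial markers, were the sets without a rise under HG+FFA (153 to 148 FPM and 88.6 to 87.9 FPM). Without sets 9, 11 and 13 the differences were 0.67 (FDR 0.00162) and 0.73 (FDR 0.000553), and both were DEG. That exclusion was chosen after seeing the data and leaves out the sets without a rise under HG+FFA. With the animal in place of the set as block, the FDR over all sets was 0.13 and 0.0723. With AII+NA Adm in EC averaged 77.3 ± 75.5 FPM (n = 9) with a median of 39.1 FPM, and the fitted difference was 0.000995 (SE 0.10, FDR 0.999).

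**Figure D5:**
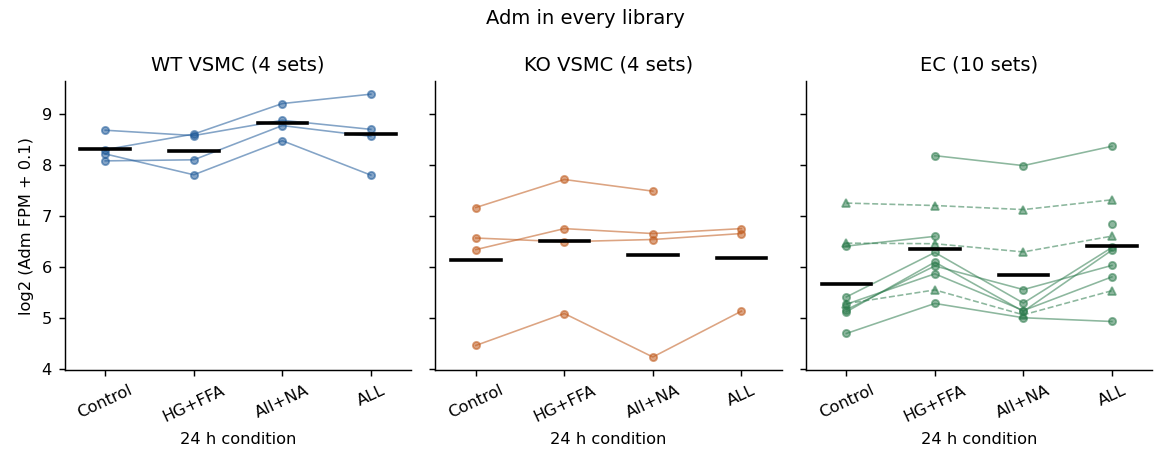
Adm as log2 (FPM + 0.1) in every library, with lines joining the conditions of a set, black bars for the mean of the log values, and dashed lines with triangles for EC sets 9, 11 and 13. The WT VSMC libraries (224 to 675 FPM) lay above all KO VSMC libraries (18.7 to 211 FPM), and most EC lines ran up from Control (25.8 to 153 FPM) to HG+FFA.

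In WT VSMC Adm was at 358, 440, 473 and 594 FPM with AII+NA, higher than Control in 4 of 4 sets (a described difference of 0.50, SE 0.16). With HG+FFA it was at 225, 276, 384 and 392 FPM (−0.07, SE 0.16, FDR 0.915) and with ALL at 224, 380, 418 and 675 FPM (0.30, SE 0.16, FDR 0.298). In KO VSMC the differences were 0.38 (SE 0.13, FDR 0.293) with HG+FFA, 0.11 (SE 0.13, FDR 0.731) with AII+NA and 0.44 (SE 0.15, FDR 0.288) with ALL.

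The genes around the receptor were described by 6 fixed lists with 66 genes. With the stressors, 2 of the 57 listed genes tested in WT VSMC were DEG, both with ALL, which is 3.51% of them against 2.19% of all genes. Mme, which encodes neprilysin, a peptidase that degrades vasoactive peptides, fell by 0.90 (SE 0.24, FDR 0.0307), from a mean of 5.82 to 2.77 FPM. Vipr2, a Gs-coupled receptor for the peptides VIP and PACAP, rose by 0.996 (SE 0.22, FDR 0.0127), from 3.17 to 5.97 FPM. With HG+FFA or AII+NA 0 of these 57 were DEG in WT VSMC by edgeR together with DESeq2, with 12.3% and 17.5% of them at an unadjusted p under 0.05 by edgeR against 11.2% and 9.42% of all genes. In KO VSMC 0 of 60 listed genes were DEG with any stressor (11.7%, 6.67% and 11.7% at an unadjusted p under 0.05 with HG+FFA, AII+NA and ALL, against 12.4%, 9.76% and 10.5% of all genes). In EC 0 of 59 were DEG (18.6%, 3.39% and 13.6%, against 16.9%, 6.67% and 16.2% of all genes). Between KO and WT VSMC 0 of 56 were DEG in Control and in HG+FFA, with 10.7% and 14.3% at an unadjusted p under 0.05 against 12.2% and 14% of all genes. In WT VSMC with ALL the medians of the lists ran from −0.09 for hypoxia target genes to 0.17 for ligands and ligand processing, against −0.010 for all genes.

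Among other ligands, the CGRP gene Calca averaged 0.587 FPM in WT VSMC Control and Calcb and Iapp were at or near 0. Pam, the enzyme that amidates adrenomedullin and CGRP, averaged 1820 FPM in WT VSMC, 1246 FPM in KO VSMC and 1105 FPM in EC in Control. The calcitonin receptor gene Calcr, which also pairs with RAMPs, was at 0.0136 FPM in WT VSMC and 0.00457 FPM in EC. Ackr3, a scavenger receptor that binds adrenomedullin, averaged 158 FPM in WT VSMC and 292 FPM in EC. Prkar1a, a regulatory subunit of the cAMP-dependent kinase, was the highest of the cAMP signalling list at 623 FPM in WT VSMC.

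Between cell types the listed genes moved in both directions. In Control 6 of 58 were DEG upward and 5 downward in EC against WT VSMC, and in HG+FFA 10 of 59 were upward and 4 downward. Together these were 19% and 23.7% of the listed genes tested, against 9.9% and 16.2% of all genes. Grk5, a receptor kinase, was higher in EC by 1.13 in Control (SE 0.23, FDR 0.00973) and the endothelin-converting enzyme gene Ece1 by 2.38 (SE 0.62, FDR 0.0261). Adcy7, an adenylate cyclase, was lower in EC by 2.96 on the log2 scale (−2.96, SE 0.61, FDR 0.00968), and Gnas, which encodes Gs alpha, differed by −0.89 (SE 0.17, FDR 0.00776). In HG+FFA the adenylate cyclase gene Adcy4 was 4.01 higher (SE 1.17, FDR 0.0246) and the beta-arrestin gene Arrb1 1.34 higher (SE 0.37, FDR 0.0197). Other DEG were Creb1, Pde4b, Pde4a, Prkar2b, Bdnf and Pdk1 upward and Vipr2, Nr4a3 and Fosb downward, each in at least 1 of the 2 conditions.

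The genes most like Ramp1 were ranked over the 16 WT VSMC libraries by Pearson r of log2 (FPM + 0.1), centred within each set, among 12031 genes that averaged 3 FPM or more. These libraries include those on which Ramp1 was selected, and values of a set share an animal, so r is a description. The CDK inhibitor gene Cdkn2b came first with r = 0.984 (Spearman rho 0.976) and mean levels of 60.5 FPM in Control, 54.8 with HG+FFA, 107 with AII+NA and 97 with ALL. Enpp4 (r = 0.967), Tubb3 (r = 0.963), the vasopressin receptor gene Avpr1a (r = 0.96) and Rgs3, a regulator of G protein signalling (r = 0.96), followed. Avpr1a averaged 32.6, 29.9, 67.6 and 54 FPM in Control, HG+FFA, AII+NA and ALL.

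For Adm the same ranking was made over the 38 EC libraries and 12263 genes. The acyl-CoA thioesterase gene Acot1 came first with r = 0.92 (rho 0.913) and averaged 9.2 FPM in Control, 18.3 with HG+FFA, 8.84 with AII+NA and 17.6 with ALL. Serpina3g (r = 0.916), Dhrs3 (r = 0.898), Gm56730 (r = 0.892) and the transglutaminase gene Tgm2 (r = 0.873) followed, and all 5 had higher means with HG+FFA and ALL than with Control.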

How the data were processed

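Bulk RNA-Seq counts of 69 libraries were used. The authors aligned poly(A) paired-end reads with HISAT2 2.1.0 to mm39 and counted exonic reads, multi-mapping reads included, per Ensembl gene with featureCounts; the deposited values are raw counts. The strand setting is not given in the sources used here. The deposited IDs numbered 56953, of which 56310 were in the annotation, and the others held 0.0241% of all counts. Samples were grouped by the labels, and no columns of unmapped samples were present. The 5 genes, the gene lists and the comparisons were chosen with earlier results of these data known.

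Tests ran across all genes that passed edgeR's expression filter with edgeR 4.0.16 (TMM, quasi-likelihood, Benjamini-Hochberg) and DESeq2 1.42.0 in R 4.3.3, per cell type with the set as block and all conditions in the fit. Log2 fold changes and FDR are those of edgeR unless DESeq2 is named. The SE was derived from edgeR's test, as the size of the log2 fold change over the square root of its F statistic. DEG required an FDR under 0.05 in both, a log2 fold change of 0.64 and 3 FPM, with no restriction to gene biotypes; genotype differences required the edgeR FDR. Cell type levels were compared without a block. FPM used TMM over all libraries and TPM the canonical transcript length. The sets are the labels' sample groups, each of 1 animal under 4 conditions. Deviations of same-set libraries correlated by 0.818, 0.804 and 0.858 on average in WT VSMC, KO VSMC and EC, which was checked before the fits were compared. No 2 libraries of a group agreed within counting noise. From each list the text names the genes called in at least 1 comparison and up to 3 of the highest others; likeness ranks name 5 genes, and a withheld item is not reported here. Counts of low genes such as Ramp1 and Ramp3 limit precision. The procedures were tested on simulated data.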

Additional observations from a re-analysis of the deposited data

Results flagged for a closer look

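Of 55 groups of 4 to 10 libraries, 2 held a library that stood apart from the rest by Dixon's test on the log2 scale, and chance would be expected to mark about 1 group in 20. Ramp1 in EC with ALL was at 4.2 FPM in set 13, against 0 to 0.578 FPM in the other 9 libraries. The same set was highest for Ramp1 in the other 3 conditions, and its endothelial markers were low. Ramp3 in KO VSMC with HG+FFA was at 5.79 FPM in set 8, against 1.16, 1.3 and 1.39 FPM in sets 6, 5 and 7.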

How the results depend on the processing

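Alternatives covered other tools, scaling, count filters, blocks and libraries. Of 1237 refitted values of the 5 genes, 1152 were counted as unchanged, and 58 as changed in sign, 0 of them called in either fit. For tested values, unchanged meant the same direction and the same side of the threshold. Described values were those with AII+NA in WT VSMC and those of Ramp1 there against Control. For these, unchanged meant a shift smaller than the SD of the set ratios, so their sign changes and lost calls were not counted. Counts of DEG among the 5 genes changed as follows, and the cause was not tested. For WT VSMC with AII+NA and with ALL these counts include the described values. Without the replicate block, 0 were DEG in WT VSMC with AII+NA and with ALL and 0 in EC with HG+FFA and with ALL. With the animal as the replicate block, 0 were DEG in EC with HG+FFA and 0 with ALL. Without EC sets 9, 11 and 13, an alternative chosen after seeing the data, 2 were DEG in EC with HG+FFA, 2 with ALL and 3 between EC and WT VSMC in Control. DESeq2 alone called 1 for ALL against HG+FFA in WT VSMC, 2 for EC against WT VSMC in Control, and 1 for KO against WT VSMC in Control and 1 in HG+FFA. Without a count filter 1 was called for ALL against HG+FFA in WT VSMC and 1 for the genotype difference in it. Without EC sets 15 and 16, 1 was called for EC against WT VSMC in HG+FFA. With 1 set left out at a time, the counts ran from 0 to 1 for AII+NA in WT VSMC (0 without set 1, 2 or 4), 1 to 2 for ALL there (1 without set 2 or 4), 0 to 1 for ALL against HG+FFA, 1 to 2 for EC against WT VSMC in Control and in HG+FFA, and 0 to 1 for KO against WT VSMC in Control.

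Over all genes, DEG in WT VSMC with AII+NA numbered 7, against 66 with DESeq2 alone, 59 without a count filter and 0 without the block. In EC with ALL they numbered 110, against 44 with the animal as block and 2 without a block.

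Signs changed for values that were not called, some of them sizeable. In EC with AII+NA, Adm was −0.01 with the animal as block, −0.0027 in complete sets and −0.01 without a count filter. Ramp3 was 0.04 and Calcrl −0.02 without a block, Ramp1 −0.03 with only the groups compared, and Calcrl −0.01 without the low-marker sets. Calcrl in KO VSMC with ALL was −0.0022 by DESeq2 and −0.00022 without a count filter. Without the block, Adm in KO VSMC was −0.06 with ALL and −0.44 for ALL against HG+FFA, Ramp3 there was 0.15, and Ramp1 in EC was 0.46. Also without the block, the genotype difference was 0.76 for Ramp2 and 0.45 for Adm with ALL, and 0.63 for Ramp2 for ALL against HG+FFA. In complete sets Calcrl in EC was 0.03 for ALL against HG+FFA and Ramp1 0.10 with HG+FFA. Ramp2 in KO VSMC was 0.01 for ALL against HG+FFA with only the groups compared, and Ramp3 0.05 for EC against WT VSMC in HG+FFA without the low-marker sets.

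With 1 set left out at a time, signs changed over these ranges. In WT VSMC with AII+NA, described only, they were −0.18 to 0.23 for Calcrl and −0.25 to 0.06 for Ramp3. In EC with AII+NA they were −0.05 to 0.03 for Adm, −0.21 to 0.63 for Ramp1 and −0.57 to 0.20 for Ramp3. In EC for ALL against HG+FFA they were −0.06 to 0.03 for Calcrl and −0.71 to 0.04 for Ramp1. With HG+FFA they were −0.17 to 0.06 for Adm in WT VSMC and −0.45 to 0.42 for Ramp1 in KO VSMC. For Calcrl in KO VSMC they were −0.04 to 0.29 with AII+NA and −0.38 to 0.19 with ALL. For EC against WT VSMC they were −0.19 to 0.57 for Ramp1 in HG+FFA, and −0.86 to 0.16 in Control and −0.55 to 0.26 in HG+FFA for Ramp3. For KO against WT VSMC they were −0.58 to 0.10 and −0.48 to 0.62 for Calcrl, and −0.70 to 1.42 and −0.42 to 0.94 for Ramp3. For genotype differences they were −0.38 to 0.12 for Adm with ALL, −0.23 to 0.14 for Calcrl for ALL against HG+FFA, and −0.03 to 0.32 for Ramp2 and −0.15 to 0.35 for Ramp3 with HG+FFA. Ramp1 had no value where it failed the count filter, in EC with only the groups compared for ALL against Control and against HG+FFA, and for EC against WT VSMC in HG+FFA without the low-marker sets.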
